A study of Homo sapiens with 4 samples.

Results

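The genes described here encode subunits of the MCM helicase, the enzyme that unwinds DNA at replication origins, or proteins that load or activate it. They are MCM2, MCM3, MCM4, MCM5, MCM6, MCM7, MCM10, CDC6, CDT1 and CDC45. They were chosen by symbol, by looking up the Ensembl identifier of each row of the count table without its version. All 10 symbols were found among 19901 protein-coding genes, and all 10 had at least 50 counts in every library, as did 12612 genes in total, which are called the tested genes below. Nascent RNA was measured by TT-Seq, in which cells take up 4-thiouridine (4sU) for some minutes and only the labeled RNA is sequenced, in HCT116 KAP1_dTAG cells. HCT116 is a colorectal carcinoma line, and the cells used were a single clone, CloneD5, in which both alleles of KAP1 (gene symbol TRIM28) carry the FKBP12 F36V degron at the C-terminus, in treated and control cells alike. The DMSO group (vehicle, n = 2) and the dTAG group (500 nM dTAG-13, the ligand that sends tagged KAP1 to the proteasome, n = 2) were treated for 8 h with serum present and then labeled with 500 μM 4sU for 10 min, with cells of 3 dishes in each sample. The comparison of dTAG with DMSO asks which genes change their nascent RNA soon after KAP1, a transcriptional regulator, is depleted.

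In the G1 phase of the cell cycle, the origin recognition complex (ORC) marks origins, and CDC6 and CDT1 work with it to load MCM2 to MCM7 onto DNA as an inactive double hexamer, a step known as licensing. In S phase, CDC45 and the GINS complex join each hexamer to form the active helicase, and MCM10 is needed for the activated helicases to start moving. Many of these genes are textbook targets of E2F factors, which drive transcription at the entry to S phase, so that their RNA varies through the cell cycle in dividing cells. In bulk samples, a difference in the number of cells at a given stage and a difference in RNA per cell cannot be told apart.

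Promoter sequences show which members carry these E2F-type letters. RefSeq promoters on GRCh38.p14, from 250 bases before to 50 bases after the gene start, were available for 8 of the 10 genes. The letters TTTCGCGC, TTTGGCGC, TTTCCCGC and TTTGCCGC were searched on both strands, and so was CCAAT, the letters bound by the factor NF-Y. At least 1 of the 4 E2F words was present in 6 of the 8 promoters, those of MCM2, MCM3, MCM6, MCM7, CDC6 and CDT1, against 4.53% of all 15108 promoters searched. CCAAT was present in 6 of the 8, those of MCM3, MCM6, MCM7, MCM10, CDC6 and CDC45, against 36.6% of all promoters. A match is a description of letters and not evidence of binding. The 160 bases before the start are shown for the 4 genes whose fold changes had the smallest p-values (MCM10, MCM6 and CDC6 with values above 0, CDT1 with a value below 0), in the direction of the gene, with capitals for E2F words and CCAAT or their reverse complements:
MCM6: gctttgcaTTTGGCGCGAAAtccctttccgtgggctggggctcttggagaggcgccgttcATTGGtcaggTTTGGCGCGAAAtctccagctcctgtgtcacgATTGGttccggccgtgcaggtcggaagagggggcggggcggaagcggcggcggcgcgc
MCM10: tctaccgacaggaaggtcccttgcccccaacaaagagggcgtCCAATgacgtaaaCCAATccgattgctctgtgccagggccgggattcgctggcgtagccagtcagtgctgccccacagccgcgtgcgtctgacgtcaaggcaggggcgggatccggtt
CDC6: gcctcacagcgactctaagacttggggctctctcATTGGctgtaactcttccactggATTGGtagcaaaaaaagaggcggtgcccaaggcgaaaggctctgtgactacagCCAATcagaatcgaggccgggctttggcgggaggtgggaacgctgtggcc
CDT1: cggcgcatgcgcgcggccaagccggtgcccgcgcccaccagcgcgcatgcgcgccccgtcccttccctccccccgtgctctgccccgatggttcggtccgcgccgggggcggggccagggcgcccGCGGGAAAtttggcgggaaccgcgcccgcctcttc

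The MCM6 stretch lies at chr2:135876444-135876603 (minus strand), that of MCM10 at chr10:13161398-13161557 (plus), that of CDC6 at chr17:40287719-40287878 (plus) and that of CDT1 at chr16:88803629-88803788 (plus). None of them overlaps an exon of GENCODE 44, but the gene intervals of the count table start elsewhere, and they hold all 160 bases of the CDC6 and CDT1 stretches, 5 bases of that of MCM10 and none of that of MCM6. In MCM6, each of the 2 runs of 12 capitals holds a forward word and an overlapping reverse word, which gives 4 matches, and the promoter also holds 2 CCAAT matches. In CDT1 the single E2F word lies 35 to 28 bases before the start. The only E2F word of CDC6 lies after the start and is not in the stretch shown. Letters 1 base away from an E2F word are not marked, and the CDC6 and CDT1 stretches hold such letters. MCM10 has 2 CCAAT matches and no E2F word. Thus 3 of these 4 promoters hold an E2F word, and the 3 genes with values above 0 include one that holds none in this window.

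Acute KAP1 depletion was followed by only small differences in the nascent RNA of the licensing genes. None of the 10 passed the test (the quasi-likelihood test of edgeR, with p adjusted by the Benjamini-Hochberg method over all tested genes and a threshold of 0.05), in either direction, while 7.1% of all tested genes did, 3.44% higher and 3.66% lower with dTAG. DESeq2 also called 0 of the 10, and 9.93% of all tested genes. At an unadjusted p under 0.05 there were 4 members (MCM10, MCM6 and CDC6 above 0 and CDT1 below 0), beside 26.6% of all tested genes. The median log2 fold change, dTAG over DMSO, was 0.0051 over the 10 genes, with 5 above and 5 below 0, and -0.015 over all tested genes. The 95% intervals of the 10 genes together ran from 0.744-fold to 1.32-fold, so that a 1.5-fold difference in either direction lay outside every one of them. This holds for TMM scaling: with library sizes set to the ERCC spike-in totals the intervals were far wider, such as -0.35 to 2.02 on the log2 scale for MCM6 and -0.66 to 1.59 for CDT1, and a 1.5-fold rise lay inside all 10. Standard errors were 0.082 to 0.098 on the log2 scale, and the counts behind them were 6438 to 20132 for each gene and library.

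The libraries held 93105627 to 102314741 gene counts each. An exact two-sided permutation test of 2 against 2 cannot go below p = 0.33. The study's methods call the libraries of a group biological replicates, and neither they nor the labels say whether these came from separate cultures. Over all tested genes, the log2 ratio of DMSO replicate 2 to DMSO replicate 1 rose with the GC content of the gene (Spearman's rho 0.75). That of dTAG replicate 2 to dTAG replicate 1 fell with GC content (rho -0.44). Genes are not independent replicates, and such a ratio does not show which library of a pair departs. TRIM28, which encodes KAP1, is depleted here as a protein and not as RNA, so it does not check the labels. Its nascent RNA was 65.7 ± 5.72 CPM (counts scaled to a library size common to all libraries) with DMSO and 50.7 ± 3.96 with dTAG (SD, n = 2), a log2 fold change of -0.37 (edgeR adjusted p = 0.019; 0.18 without dTAG replicate 1 and 0.87 without dTAG replicate 2), and -0.10 once the trend with GC content and length was removed. The epithelial markers EPCAM, KRT8, KRT18, CDH1 and CDX2 were present, VIL1 had 1 to 15 counts, and the leukocyte marker PTPRC had at most 1.

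**Figure D1:**
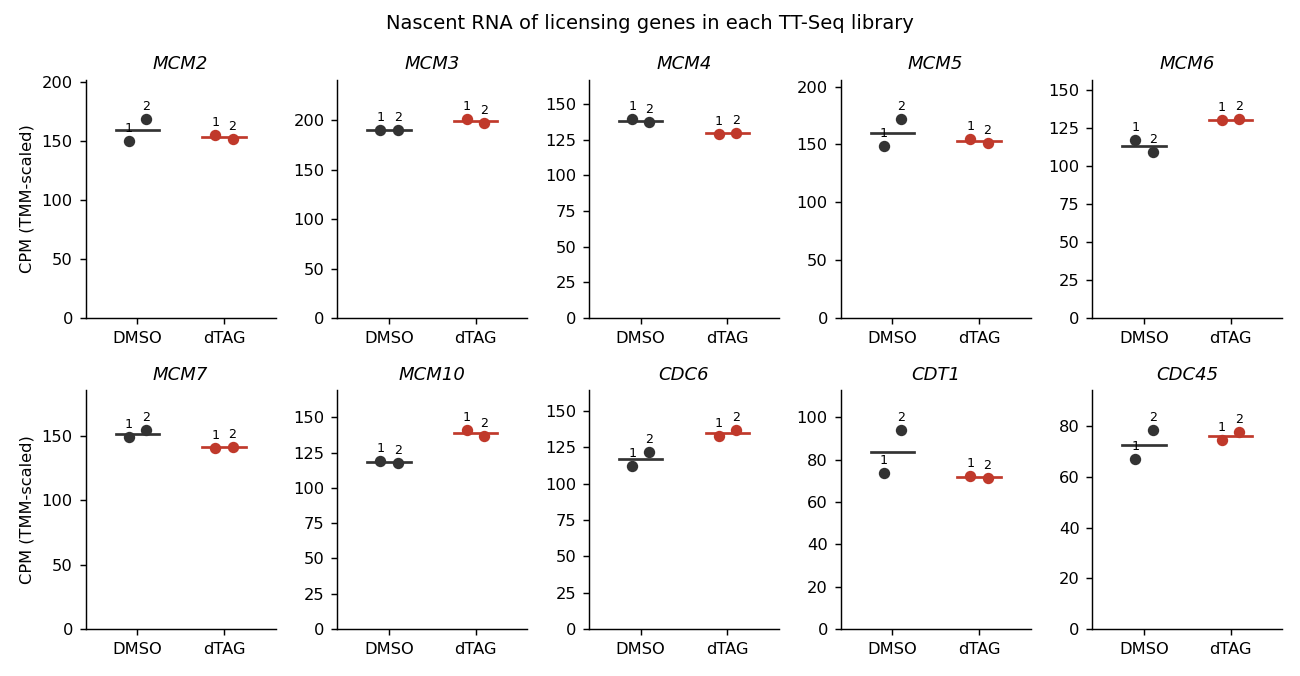
Nascent RNA of the 10 licensing genes, in CPM (vertical axis), with 1 point per library for DMSO and dTAG and a line at the mean of each group. MCM10, MCM6 and CDC6 have both dTAG points above both DMSO points, and for CDT1 the DMSO points, 73.5 and 94.0, lie further apart than the groups do.

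CDC6 and CDT1, the loading factors, had fold changes of opposite sign. CDC6, an ATPase that binds ORC at the origin (ENSG00000094804.9, chr17:40287632-40304657, plus strand), had 112 and 122 CPM in DMSO replicates 1 and 2 and 133 and 137 CPM in the dTAG replicates. Both dTAG libraries were above both DMSO libraries, and the log2 fold change was 0.20 ± 0.085 (SE; 95% interval 0.03 to 0.38; edgeR adjusted p = 0.135). Without DMSO replicate 2 it was 0.26 and passed the test (edgeR adjusted p = 0.0035), as did 11.8% of the genes tested in that fit, 6.4% of them upward. It was not called without DMSO replicate 1 (0.14; adjusted p = 0.082), in a fit that called 43.4% of all genes, nor without dTAG replicate 1 (adjusted p = 0.60) or dTAG replicate 2 (0.95). CDC6 was also called with 1 spike-in factor from the ERCC RNAs as a covariate (0.23; edgeR adjusted p = 0.026), where 3.58% of all genes were called higher, and after removal of a trend with gene length (0.29; adjusted p = 0.015), where 5.03% were.

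CDT1, which brings the MCM hexamer to the loading site and is the target of the inhibitor geminin (ENSG00000167513.8, chr16:88803212-88809258, plus strand), had 73.5 and 94.0 CPM with DMSO and 72.3 and 71.3 CPM with dTAG. The dTAG libraries were both below the DMSO libraries, but only by 1.69% of the lower DMSO value, and DMSO replicate 2 alone was high. The log2 fold change was -0.22 ± 0.098 (SE; interval -0.43 to -0.02; edgeR adjusted p = 0.157). It was -0.39 without DMSO replicate 1 (edgeR adjusted p = 9.3e-07, in the fit that called 43.4% of all genes, 22.1% higher and 21.3% lower) and -0.035 without DMSO replicate 2 (adjusted p = 0.81), so the size of the difference was set by which DMSO library was kept.

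The 6 subunits of the hexamer did not move as a block. MCM6 was higher in both dTAG libraries, MCM3 was slightly higher, MCM4 and MCM7 were slightly lower, and MCM2 and MCM5 overlapped between groups, with no subunit past the test. MCM6 (ENSG00000076003.4, chr2:135839625-135876426, minus strand) had 117 and 109 CPM with DMSO and 130.3 and 130.8 CPM with dTAG. Its dTAG libraries lay 11.0% above the higher DMSO library, and its log2 fold change was 0.20 ± 0.084 (SE; interval 0.03 to 0.38; edgeR adjusted p = 0.127). It was 0.26 without DMSO replicate 1, where it passed the test (edgeR adjusted p = 0.0013), and 0.15 without DMSO replicate 2, where it did not (adjusted p = 0.14).

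MCM3 (ENSG00000112118.18, chr6:52264008-52284881, minus strand) had 190.3 and 190.4 CPM with DMSO and 201 and 197 CPM with dTAG, and its log2 fold change was 0.07 ± 0.086 (SE; edgeR adjusted p = 0.65). The groups did not overlap, with a gap of 3.69%, yet the interval, -0.11 to 0.24, covers 0, since the fit takes the spread from genes of similar level as well as from these libraries. MCM4 (ENSG00000104738.16, chr8:47960184-47978160, plus strand) had 139 and 137 CPM with DMSO and 129 and 129.6 CPM with dTAG. MCM7 (ENSG00000166508.17, chr7:100092727-100101940, minus strand) had 149 and 155 CPM with DMSO and 141 and 142 CPM with dTAG. Both were lower in both dTAG libraries, with a log2 fold change of -0.10 each and intervals of -0.27 to 0.08 for MCM4 and -0.28 to 0.07 for MCM7 (edgeR adjusted p = 0.47 and 0.43).

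MCM2 (ENSG00000073111.13, chr3:127598222-127622436, plus strand) had 150.0 and 168 CPM with DMSO and 155 and 151 CPM with dTAG. MCM5 (ENSG00000100297.15, chr22:35400062-35425430, plus strand), whose product adjoins that of MCM2 at the gate of the ring, had 149 and 172 CPM with DMSO and 154 and 151 CPM with dTAG. For both genes the dTAG values fell between the DMSO libraries, and DMSO replicate 2 was the highest of the 4. Their log2 fold changes were -0.05 ± 0.088 and -0.07 ± 0.090 (SE; edgeR adjusted p = 0.71 and 0.66). Without DMSO replicate 1, MCM5 stood at -0.17, and without DMSO replicate 2 it stood at 0.038.

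MCM10 and CDC45 act after loading. MCM10 was above 0 under every setting tried, and the sign of CDC45 depended on the library left out. MCM10 (ENSG00000065328.16, chr10:13161553-13211104, plus strand) had 119 and 118 CPM with DMSO and 141 and 137 CPM with dTAG, the widest gap between groups of the 10 genes, 14.8%. Its log2 fold change was 0.23 ± 0.083 (SE; interval 0.06 to 0.40; edgeR adjusted p = 0.086), and DESeq2 gave 0.24 (adjusted p = 0.0503). It passed the test when either DMSO library was left out, at 0.24 without DMSO replicate 1 (edgeR adjusted p = 0.0028, where 22.1% of all genes were called higher) and 0.22 without DMSO replicate 2 (adjusted p = 0.018, where 6.4% were). It did not pass without dTAG replicate 1 (0.21; adjusted p = 0.63) or dTAG replicate 2 (0.25; adjusted p = 0.93). CDC45 (ENSG00000093009.9, chr22:19479458-19520612, plus strand) had 67.0 and 78.4 CPM with DMSO and 74.4 and 77.7 CPM with dTAG, so that its groups overlapped, and its log2 fold change was 0.07 ± 0.090 (SE; interval -0.12 to 0.25; edgeR adjusted p = 0.67). Leaving out DMSO replicate 1 gave -0.044, and leaving out DMSO replicate 2 gave 0.18.

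Across the 10 genes, the groups did not overlap in 7, 4 higher with dTAG (MCM3, MCM6, MCM10 and CDC6) and 3 lower (MCM4, MCM7 and CDT1). Groups that do not overlap were common in this experiment, at 58.8% of all tested genes (28.1% higher and 30.7% lower with dTAG), so that the 7 of 10 is near the background. The DMSO libraries lay further apart than the dTAG libraries, as a log2 ratio, in 8 of the 10 genes.

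**Figure D2:**
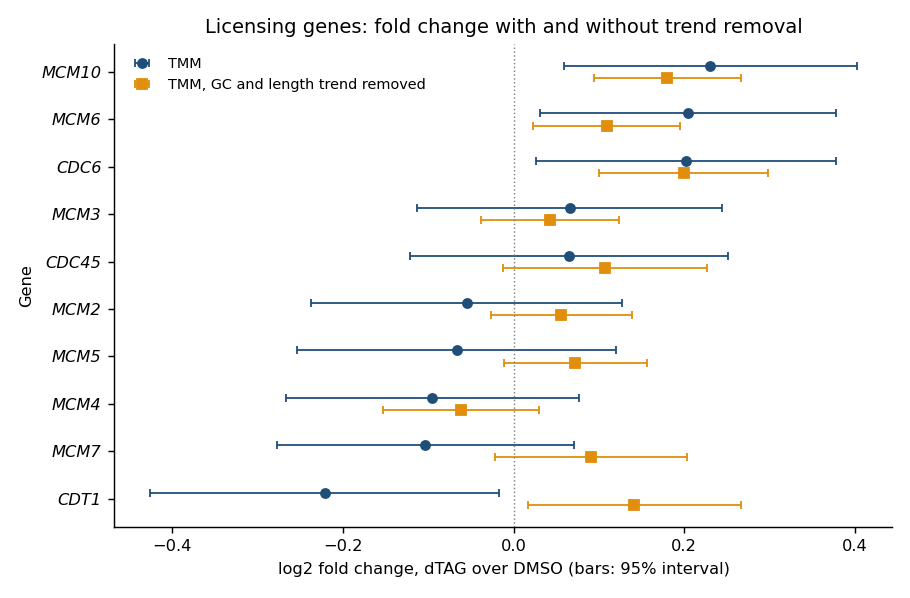
Log2 fold change, dTAG over DMSO (horizontal axis), of each licensing gene in edgeR, with 95% intervals, shown before and after a trend with GC content and gene length was removed in each library. Before removal no gene was called, and CDT1 moved from -0.22 to 0.14, the largest shift of the 10.

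Levels between genes were compared per kilobase of the counted interval, which includes introns. In DMSO, MCM7 had the highest nascent level, 16.5 ± 0.436 CPM per kb (SD, n = 2), above 98.0% of tested genes, followed by CDT1 at 13.8 ± 2.39 CPM per kb. The ranges of these first 2 did not overlap. Next came MCM3 at 9.12 ± 0.0031, MCM4 at 7.69 ± 0.063, CDC6 at 6.88 ± 0.404, MCM2 at 6.56 ± 0.525 and MCM5 at 6.31 ± 0.632 CPM per kb. Within this order CDC6, MCM2 and MCM5 cannot be told apart by their spread. MCM6 at 3.08 ± 0.157, MCM10 at 2.39 ± 0.0196 and CDC45 at 1.77 ± 0.197 CPM per kb were the lowest, and CDC45 was still above 66.8% of tested genes. Summed over MCM2 to MCM7, the 2 DMSO libraries gave 0.0895% and 0.0978% of all gene counts, and the 2 dTAG libraries 0.0891% and 0.0874%. On the TMM-scaled CPM scale the same sums were 895 and 931 with DMSO and 911 and 902 with dTAG, and the mean with dTAG was 0.993 times that with DMSO. For all 10 genes together the ratio was 1.02.

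The proportions among the 6 subunits do not depend on how libraries are scaled. Of the summed counts per kb of MCM2 to MCM7, MCM7 held 33.5% and 33.4% with DMSO and 31.8% and 32.2% with dTAG. MCM3 held 18.9% and 18.2% with DMSO and 20.01% and 19.8% with dTAG, and MCM6 held 6.61% and 5.91% with DMSO and 7.36% and 7.43% with dTAG. These 3 shares did not overlap between groups, those of MCM3 and MCM6 being higher with dTAG and that of MCM7 lower. The share of MCM4 was 16.0% and 15.2% with DMSO and 14.9% and 15.1% with dTAG, also without overlap. The shares of MCM2, between 12.8% and 13.8%, and of MCM5, between 12.2% and 13.5%, overlapped. Non-overlap was common, at 58.8% of all tested genes for CPM, and with 2 libraries a group no test was made of these shares. The log2 fold changes behind them shifted with the fit. After removal of the trend with GC content and length, those of MCM6, MCM7 and MCM3 were 0.11, 0.091 and 0.042, against 0.20, -0.10 and 0.07 before. The difference between MCM6 and MCM7 was then nearly gone. With only the length trend removed, MCM6, MCM7 and MCM3 were at 0.195, 0.047 and 0.12. The parts of GC content and length were not tested.

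**Figure D3:**
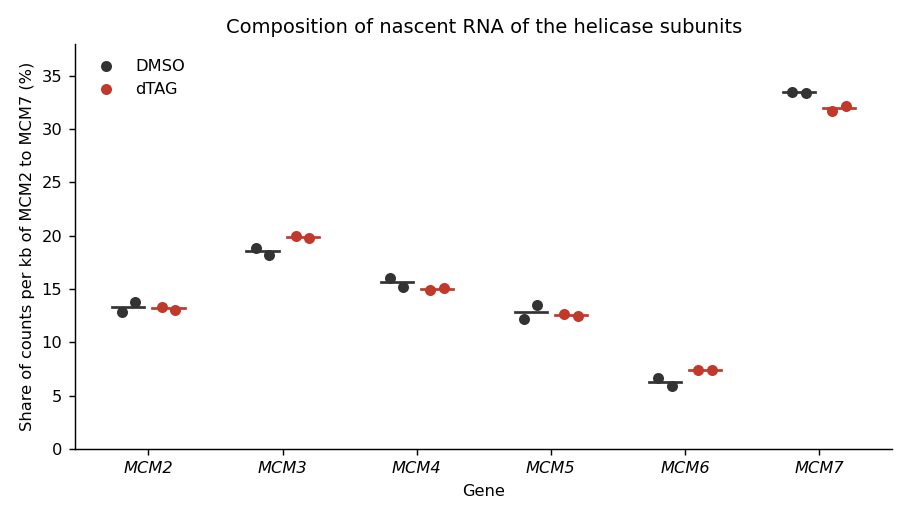
Share of each subunit in the summed nascent counts per kilobase of MCM2 to MCM7 (percent, vertical axis), with 1 point per library and a line at each group mean. MCM7 holds 31.8% to 33.5% and MCM6 5.91% to 7.43%, and the order of the 4 libraries differs from gene to gene.

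The fold changes of the licensing genes followed base composition and, less closely, gene length. The 4 members with the lowest GC content over the gene, MCM6 (40.3%), MCM3 (43.2%), MCM10 (43.6%) and CDC6 (43.8%), were all above 0, and CDT1, the highest at 65.5%, had the lowest value. Between them, MCM4 at 45.8%, MCM2 at 50.7%, MCM5 at 52.5% and MCM7 at 54.2% were below 0, and CDC45 at 48.0% was above. Spearman's rho of fold change with GC content was -0.87 over the 10 genes and -0.56 over all tested genes, values that share the same 4 libraries. With gene length, rho was 0.70 over the 10 genes and 0.42 over all tested genes. With only the length trend removed, CDT1 stood at -0.031. Over all tested genes, the median log2 fold change went from 0.15 in the decile of lowest GC content to -0.26 in the highest, and CDT1 at -0.22 lay close to the median of its decile. The log2 ratio of DMSO replicate 2 to DMSO replicate 1 rose with GC content among the members as well (rho 0.75, n = 10). The parts of base composition and of length in each gene's fold change were not tested. The fit below shows what remains once a trend with both is removed.

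When the trend with GC content and then gene length was removed from each library, the spread of the members narrowed, from a range of 0.45 to one of 0.26 on the log2 scale. In that fit 9 of the 10 were above 0, their median was 0.099 and that of all tested genes was -0.0014. MCM10, at 0.18 (edgeR adjusted p = 0.0078), and CDC6, at 0.20 (adjusted p = 0.0095), were then called higher, 2 of 10 in a fit that called 10.6% of all tested genes higher and 18.1% in either direction. MCM6 was at 0.11 (adjusted p = 0.075), and CDT1 turned from -0.22 to 0.14 (adjusted p = 0.11). MCM2, MCM5 and MCM7 also turned from below to above 0, at 0.056, 0.072 and 0.091, CDC45 and MCM3 stayed above, and MCM4 alone stayed below, at -0.061. The values of MCM10, CDC6 and MCM6 were above 0 in each of the 16 alternative settings tried. These settings draw on the same 4 libraries and are not independent. With ERCC totals every member was above 0, where the median of all tested genes was 0.63.

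**Figure D4:**
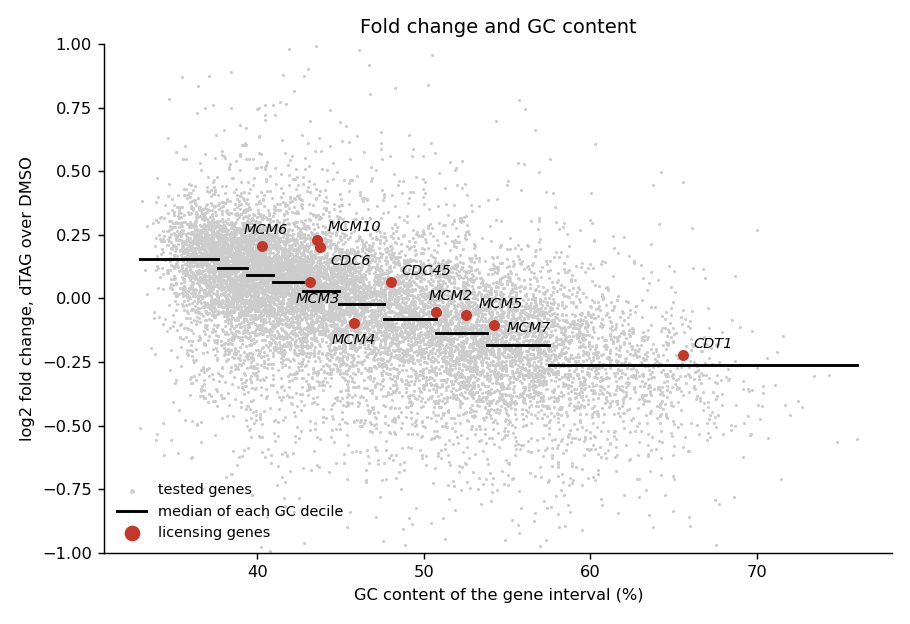
Log2 fold change, dTAG over DMSO (vertical axis), against the GC content of the gene interval (percent, horizontal axis) for the tested genes in grey, of which 22 lie outside the plotted range, with the median of each GC decile as a black line and the licensing genes in red. Every licensing gene except MCM4 lies above the line of its decile, and CDT1, at -0.22, lies near its line at -0.26.

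Genes that start within 1000 bases of a member on the other strand share its promoter region. There were 3 such neighbors. PRKDC, which encodes the catalytic subunit of DNA-PK, starts 805 bases from MCM4 and had a log2 fold change of 0.15 (edgeR adjusted p = 0.35), while MCM4 was at -0.10. AP4M1, a subunit of an adaptor complex, starts 246 bases from MCM7 and was at -0.15 (adjusted p = 0.58). It overlaps 4.27% of MCM7 on the opposite strand, where the counting of reads is not stated to use the strand, so reads from the overlap cannot be assigned. UFD1, which works with the p97 ATPase, starts 727 bases from CDC45 and was at -0.01 (adjusted p = 0.93). In none of the 3 pairs did either gene pass the test.

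The MCM7 gene also carries 3 microRNAs in its intron 13, so that nascent RNA counted over the whole gene includes their primary transcript. Their main mature forms (RefSeq) are shown for their seeds, bases 2 to 8, in capitals:
hsa-miR-106b-5p: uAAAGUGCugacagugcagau
hsa-miR-93-5p: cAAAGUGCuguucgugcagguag
hsa-miR-25-3p: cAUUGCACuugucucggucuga
The first 2 share a seed and the third differs. They map to chr7:100094043-100094063, chr7:100093815-100093837 and chr7:100093571-100093592 on the minus strand. The mature forms themselves were not measured, and MCM7, at -0.10, is the value for the shared transcript.

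Around the licensing genes, 9 lists of other replication genes, grouped by role, held 70 genes, of which 69 were tested, and POLD4, with 22 to 56 counts, was below the minimum. Called higher were 2, TOPBP1 and WDHD1, both in the list of helicase activation, and none was called lower by edgeR, with 14 above and 2 below 0 at an unadjusted p under 0.05. DESeq2 called 4 higher. With edgeR, over all tested genes, 3.44% were called higher, 3.66% lower and 26.6% had an unadjusted p under 0.05 in either direction. By these shares edgeR called the related genes no more often than the background. Their direction was uneven. Both dTAG libraries were above both DMSO libraries in 26 of the 69, beside 28.1% of all tested genes. Both were below in 9, beside 30.7%. By sign alone, 51 were above and 18 below 0, with a median of 0.05, against -0.015 over all tested genes. After removal of the trend with GC content and length, 48 were above 0 and the median was 0.035. TOPBP1, a scaffold that brings CDC45 and GINS to the loaded hexamer, had 108 and 94.9 CPM with DMSO and 120.4 and 130.1 CPM with dTAG (log2 fold change 0.30 ± 0.089 SE; edgeR adjusted p = 0.045). WDHD1, which ties polymerase alpha to the helicase, had 115 and 107 CPM with DMSO and 130.5 and 140.2 CPM with dTAG (0.28 ± 0.085 SE; edgeR adjusted p = 0.049). Both were called after removal of the trend as well, at 0.15 each (adjusted p = 0.023 and 0.031), and when either DMSO library was left out. Neither was called without dTAG replicate 1 (adjusted p = 0.35 for TOPBP1 and 0.41 for WDHD1) or without dTAG replicate 2 (0.93 and 0.94), fits in which only the DMSO libraries, which lay further apart, gave the spread. Neither was called with upper-quartile factors, ERCC totals or an ERCC factor, and WDHD1 was not called with a minimum of 10 counts in 2 libraries, without overlapping genes or after removal of the length trend. In the same list MTBP, a partner of the firing factor TICRR, was at 0.28 (adjusted p = 0.072) and RECQL4, a helicase of the RecQ family, at -0.26 (adjusted p = 0.10).

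All 6 ORC subunit genes were above 0 and none was called, with a median of 0.13. After removal of the trend with GC content and length, 5 of the 6 were above 0 and the median was 0.054. ORC3, ORC2 and ORC5 were at 0.22, 0.21 and 0.22 (edgeR adjusted p = 0.10, 0.11 and 0.13), and ORC6, the smallest subunit, was at 0.05. Among 8 licensing inhibitors and CDT1 turnover genes, 7 were above 0 and none was called. Once the trend was removed, 4 of these 8 were above 0 and their median was 0.011. DTL, which directs CDT1 to destruction in S phase, was at 0.25 (adjusted p = 0.086), the cullins CUL4A and CUL4B at 0.18 and 0.10, and MCMBP, which binds MCM subunits outside chromatin, at 0.17. CUL4A was called higher after the trend was removed, at 0.17 (adjusted p = 0.028), and SKP2, at -0.17 (0.036), and ORC4, at -0.17 (0.014), were called lower. Of 8 origin firing kinases and cyclins none was called. CCNE2, a cyclin of CDK2, was at 0.25, DBF4, the activator of CDC7, at 0.18, CDC7 at 0.17 and CDK2 at -0.13, the last of which lies wholly within regions shared with other counted genes.

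Of 4 related MCM genes, MCM8, which works with MCM9 in recombination, was at 0.24 (edgeR adjusted p = 0.088), and MCM9 (0.07), HROB (0.02) and MCMDC2 (0.04) were close to 0. None of the 11 tested genes of replicative polymerases was called, with POLE2 at 0.21, POLA1 at 0.23, PRIM2 at 0.17 and POLD2 at -0.16. None of 10 genes for the clamp, clamp loader and Okazaki maturation was called. The clamp loader subunits RFC3 and RFC1 were at 0.27 (adjusted p = 0.069) and 0.12, the nuclease DNA2 was at 0.09 and the clamp PCNA at -0.07. In the list of fork protection and RPA, RPA1 was at 0.11, RPA3, of whose interval 94.9% is shared with another counted gene, at 0.06, TIMELESS at -0.03 and TIPIN at 0.03, and none was called. Of 6 genes of nucleotide supply, RRM2, the small subunit of ribonucleotide reductase, had the lowest value of all 69 genes, -0.48 (adjusted p = 0.075), but 81.0% of its interval is shared with another counted gene. RRM1, the large subunit, was at 0.19, TK1 at -0.17 and TYMS at -0.14.

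**Figure D5:**
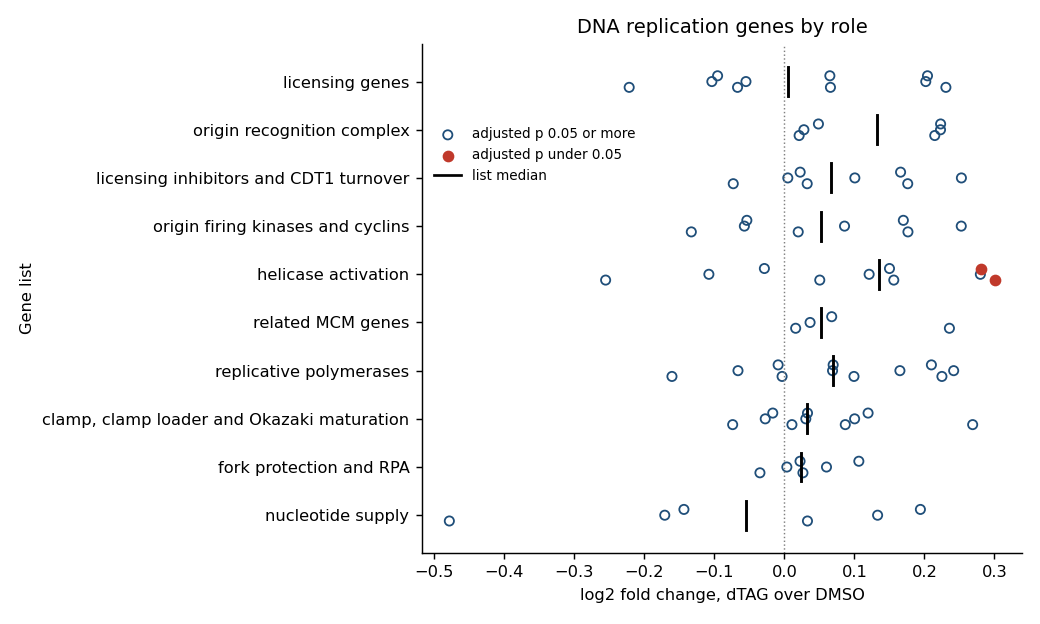
Log2 fold change, dTAG over DMSO (horizontal axis), of the licensing genes and of 9 lists of other replication genes, with 1 point per gene, filled where edgeR's adjusted p was under 0.05, and a line at each list median. Only TOPBP1 and WDHD1 in helicase activation are filled, and the ORC genes all lie above 0.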

How the data were processed

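Per the labels and the study's methods, reads were trimmed by the authors (Trim Galore 0.6.4), aligned to hg38 (STAR) and assigned by featureCounts (Subread 1.6.3) to the full length of each protein-coding gene, introns included, and to 92 ERCC spike-ins. What was deposited is the raw count per gene in 4 libraries, with no scaling. How strand and overlapping genes were handled is not given in the sources used here, and 6554 genes overlap another counted gene. All per-sample columns were used.

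Symbols came from GENCODE 44 and the NCBI gene table, and 19802 of 19901 identifiers matched. The 12612 genes that reached 50 counts in each library were tested with edgeR 4.0.16 (R 4.3.3, limma 3.58.1): TMM factors (0.970 to 1.05), quasi-likelihood F test, two-sided, Benjamini-Hochberg adjustment over tested genes, no replicate block. TMM was used because the function and number of factors behind the authors' spike-in normalization are not stated; ERCC RNAs held 0.0103% to 0.0265% of gene counts. SE was obtained as the absolute log2 fold change over the root of F. CPM are scaled by TMM. Each SD is over 2 libraries.

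The alternatives were DESeq2 1.42.0, other scalings, filters and tests, leaving out overlapping genes, trend removal by lowess (span 0.3) on GC content and length or on length alone, a replicate block and leaving out each library. Several of the fits were also run on simulated counts that held no trend with GC content or length between libraries. That run does not check the fits against such a trend. GC content, overlaps and motifs were computed in Python 3.11.15. The members and lists were chosen with earlier results of these data known. Named genes were all members, TRIM28, the head-to-head neighbors and the up to 4 genes of smallest adjusted p of each list. CUL4A, ORC4 and SKP2 are named for trend removal as well, the latter 2 chosen after their values were seen.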

Additional observations from a re-analysis of the deposited data

How the results depend on the processing

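With 2 libraries a group, no member passed the test in the main analysis, and calls appeared only under some settings, always of MCM10, MCM6 or CDC6 upward or CDT1 or MCM5 downward. Of 158 values of single members under the alternatives, 126 kept direction and side of the threshold, 14 came to pass it and 18 changed sign. Members called higher were 1 with an ERCC factor, beside 3.58% of all tested genes, and 1 after length trend removal, beside 5.03%. After GC and length trend removal they were 2, beside 10.6%. With the crossed replicate block, 3 were called higher and 1 lower, beside 1587 and 1603 of the 12612 tested genes. Calls also appeared on leaving out 1 DMSO library, with 1 library left in that group. The members' median was -0.070 with upper-quartile factors, 0.66 with ERCC totals, 0.055 without overlapping genes (which drops MCM2 and MCM7), 0.099 after GC and length trend removal and -0.066 to 0.051 on leaving out 1 library. ERCC totals moved the median of all genes to 0.63, so the signs under them are relative to that shift. Signs changed with ERCC totals for MCM2 (0.61), MCM4 (0.55), MCM5 (0.60), MCM7 (0.55) and CDT1 (0.47), with an ERCC factor for MCM2 (0.037), MCM5 (0.055) and CDT1 (0.018), after GC and length removal for MCM2 (0.056), MCM5 (0.072), MCM7 (0.091) and CDT1 (0.14), after length removal for MCM7 (0.047), with upper-quartile factors for MCM3 (-0.0076) and CDC45 (-0.0099). On leaving out 1 library, values ran from -0.13 to 0.028 for MCM2 and -0.17 to 0.038 for MCM5, above 0 without DMSO replicate 2, and from -0.044 without DMSO replicate 1 to 0.18 for CDC45. The cause was not tested.

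Of the related genes, those called higher were 4 with DESeq2, the likelihood ratio test or no filter, 0 with upper-quartile factors, ERCC totals, an ERCC factor or the replicate block, 1 with a minimum of 10 counts or without overlapping genes, 12 with the crossed block and, on leaving out 1 library, from 0 (either dTAG replicate) to 22 (DMSO replicate 1). Those called lower were 1 with upper-quartile factors, an ERCC factor, the likelihood ratio test or no filter, 2 after GC and length removal or with the crossed block, and 0 to 6 on leaving out 1 library. Over all genes, 434 were called higher and 461 lower in the main analysis. Called higher were 680 with DESeq2, 255 with upper-quartile factors, 0 with ERCC totals, 729 with the likelihood ratio test, 673 without a filter, 1341 after GC and length removal, 162 with the replicate block, 1587 with the crossed block and, on leaving out 1 library, from 48 (dTAG replicate 2) to 2797 (DMSO replicate 1). Called lower were 869, 0 and 744 with upper-quartile factors, ERCC totals and an ERCC factor, 864 with the likelihood ratio test, 744 without a filter, 939 after GC and length removal, 178 with the replicate block, 1603 with the crossed block and from 20 to 2692 on leaving out the same 2 libraries. The libraries share only a number: same-numbered DMSO and dTAG libraries tended weakly to deviate from their group means in opposite directions (r = -0.30 across genes). The crossed replicate block, added after seeing the data, pairs DMSO replicate 1 with dTAG replicate 2. Where a library was left out, the lone library of its group was assumed to vary like the others.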
